A study of Mus musculus with 6 samples.

Results

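The SNARE and granule exocytosis machinery was followed across 3 populations of the basophil lineage sorted from mouse bone marrow. The 41 genes were listed by function (SNARE proteins, proteins that bind or take apart SNARE complexes, and tethers and regulators of granule fusion) and matched to the tables by Entrez Gene ID. Of these 41, 40 were listed and all 40 passed the filter on low values, among 11337 genes that passed of 24532 listed. Vamp7 was not analysed here.

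Each population had 2 libraries, called biological duplicates in the series' design text. All cells came from C57BL/6J mice and were negative for lineage markers and for ckit. BaP, named basophil precursor, was CD34-positive and MAR1-positive, MAR1 being an antibody to the IgE receptor alpha chain. MAR1HI and MAR1INT were both CD34-negative and CD200R3-positive and differed in whether MAR1 staining was high or intermediate. The order BaP, MAR1HI, MAR1INT was chosen for reading, and whether it is a course of development was not tested. No age, treatment or pooling of mice was stated in the labels. Levels are given as TPM (a relative transcript abundance, scaled per length and to the same total in every library), and differences as log2 differences of TPM + 1 with the adjusted p of limma, a gene being called at an adjusted p under 0.05. The libraries were made by capture with probes, so ranks and shares between different genes may also depend on the probes, which was not tested. An exact permutation test of 2 libraries against 2 could not go below p = 0.333, so the calls rest on a spread pooled over all 3 groups. Nothing in the labels says whether duplicates came from separate animals, so the p-values measure the spread between these libraries.

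SNARE proteins drive membrane fusion: an R-SNARE on the vesicle (the VAMP proteins) and Qa, Qb and Qc-SNAREs on the target membrane (syntaxins and SNAP proteins) zip into a helical bundle that pulls the membranes together. Munc18-type proteins such as the product of Stxbp2 hold and guide syntaxins, Munc13-type proteins such as that of Unc13d prime docked granules, and synaptotagmin-like proteins (Sytl genes) link granules carrying the GTPase RAB27 to the plasma membrane. NSF and its SNAP adaptors pull used complexes apart. Basophils and mast cells release histamine and proteases from granules through such complexes, and inherited loss of UNC13D, STXBP2, STX11 or LYST impairs granule release or granule size control in human immune cells.

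A small set of tethering and granule genes rose steeply, while most SNARE genes were not called in any comparison. Limma called 7.5% of members in MAR1HI against BaP, 12.5% in MAR1INT against MAR1HI and 25% in MAR1INT against BaP. The shares of all tested genes were 2.49%, 16.8% and 31.5%, so a lack of calls was not particular to the members. Lyst, Sytl3 and Sytl2 rose in MAR1HI over BaP and again in MAR1INT over MAR1HI, the second rise of Sytl2 being lost under several alternative settings. MAR1INT exceeded BaP 13.6-fold for Sytl3, 12.03-fold for Sytl2 and 6.37-fold for Lyst (ratios of group means). Unc13d, Stxbp2, Stx4a, Sytl1 and Vamp4 were also higher in MAR1INT than in BaP, by 1.67 to 2.52-fold, each call being lost under some alternative settings. Bet1 and Sec22b, SNAREs of transport between the endoplasmic reticulum and the Golgi apparatus, were lower in MAR1INT than in both other populations. Against MAR1HI, both calls were lost with no filter and after quantile normalization, and that of Sec22b under several further settings.

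**Figure D1:**
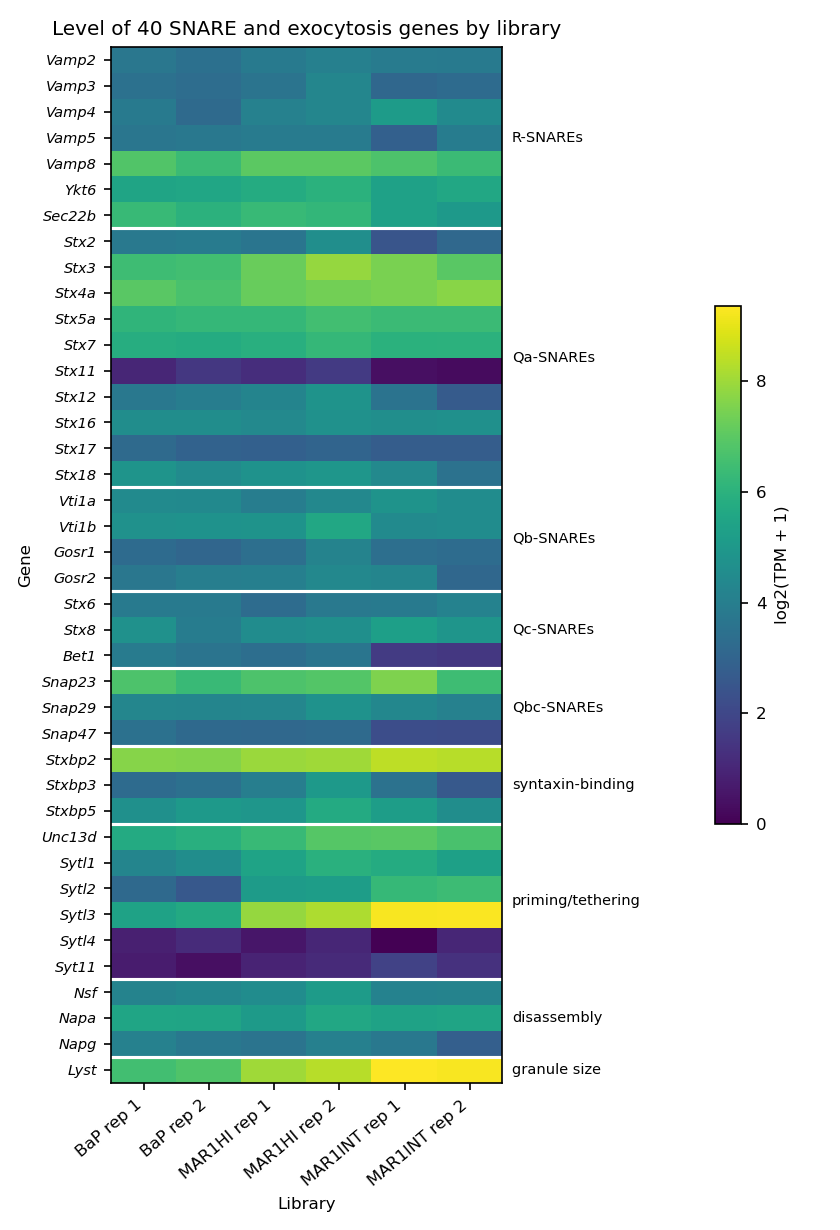
Level of the 40 listed members in each library, as log2(TPM + 1) on a colour scale that starts at 0, with genes in rows ordered by role and libraries in columns. Lyst and Sytl3 are brightest in both MAR1INT libraries, while Stx11, Sytl4 and Syt11 are dark in every library and Bet1 darkens in MAR1INT.

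The sequences upstream of a pair of genes that rose (Lyst and Stxbp2) and of the pair that fell (Bet1 and Sec22b) are shown so that the genes can be read beside their start sites. Each is the 250 bases before the gene's start, 5′ to 3′ on the gene's strand, from RefSeq (build GRCm38.p6), in lower case with motif matches in capitals. The motifs searched on both strands were GATAA (core of GATA sites), TGTGGT (core of RUNX sites), CACGTG (an E-box) and GGGCGG (a GC box), and none of the matches overlapped. Annotated starts lay within 3 bases of the start in the deposited tables for Lyst, Bet1 and Sec22b, and 51 bases away for Stxbp2.
Lyst, chr13:13590159-13590408, plus strand: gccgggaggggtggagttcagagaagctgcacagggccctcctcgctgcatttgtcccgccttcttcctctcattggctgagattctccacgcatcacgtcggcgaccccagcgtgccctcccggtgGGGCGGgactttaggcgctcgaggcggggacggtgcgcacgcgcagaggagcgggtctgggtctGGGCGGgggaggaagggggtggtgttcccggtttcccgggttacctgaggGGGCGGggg
Stxbp2, chr8:3630859-3631108, plus strand: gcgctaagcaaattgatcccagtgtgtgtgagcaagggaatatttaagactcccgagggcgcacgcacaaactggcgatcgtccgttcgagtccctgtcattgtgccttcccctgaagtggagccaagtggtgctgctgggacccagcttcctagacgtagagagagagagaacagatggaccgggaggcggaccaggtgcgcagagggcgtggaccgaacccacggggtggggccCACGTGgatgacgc
Bet1, chr6:4086931-4087180, minus strand: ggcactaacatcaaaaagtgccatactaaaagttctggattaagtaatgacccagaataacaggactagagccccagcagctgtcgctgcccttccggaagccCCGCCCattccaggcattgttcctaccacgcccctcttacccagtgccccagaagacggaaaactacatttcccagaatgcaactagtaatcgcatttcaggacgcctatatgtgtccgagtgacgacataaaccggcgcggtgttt
Sec22b, chr3:97900977-97901226, plus strand: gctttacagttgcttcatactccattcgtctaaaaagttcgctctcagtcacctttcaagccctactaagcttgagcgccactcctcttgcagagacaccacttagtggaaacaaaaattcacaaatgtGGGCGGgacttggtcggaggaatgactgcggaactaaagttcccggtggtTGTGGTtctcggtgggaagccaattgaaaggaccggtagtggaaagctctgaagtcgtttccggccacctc

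The Lyst window held 3 GC boxes and was 69.2% G and C, the Sec22b window held 1 GC box and 1 RUNX core, the Bet1 window held 1 GC box, and the Stxbp2 window held 1 E-box. No window of these 4 held GATAA or its reverse complement. Over the 35 members with an upstream sequence in the table, GGGCGG stood in 57.1%, against 32.9% of 27025 upstream windows of the same length, TGTGGT in 22.9% against 14.2%, CACGTG in 14.3% against 6.05% and GATAA in 8.57% against 23%. The median G and C content was 60.4% in the members' windows and 52% in all windows. These are counts of letters, not of bound sites. The 27025 windows were not limited to genes that passed the filter on low values, as the members did. Whether the differences are particular to the members was not tested.

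The libraries resembled one another in depth, with 4.75 to 5.28 gigabases of aligned sequence implied by the ratio of FPKM to coverage. Fewer genes stood at a TPM of 1 or more in MAR1INT (9604 and 9705) than in BaP (10983 and 11544) or MAR1HI (10710 and 11038). The part of this in the falls in MAR1INT was not tested. All 12 basophil markers examined were detected in every group, and their summed level was 17783 and 22714 TPM in the BaP pair, 22903 and 19427 in the MAR1HI pair and 15634 and 12809 in the MAR1INT pair. Summed markers of other granulocytes and of antigen-presenting cells were highest in BaP. The 9 eosinophil markers summed to 2166 and 1152 TPM in the BaP pair, 109 and 158 in the MAR1HI pair and 213 and 349 in the MAR1INT pair, where Epx, Prg3, Ear6 and Il5ra were listed at 0 in both libraries (Ear6 also in MAR1HI). The 12 neutrophil markers summed to 6166 and 11138 TPM in BaP and to 3279 to 4890 in the other libraries. For 10 monocyte and macrophage markers the sums were 614 and 1074 against 213 to 289, and for 8 dendritic cell markers 961 and 339 against 10.8 to 54.1. The 7 mast cell markers summed to 45.1 and 40.7 TPM in BaP, nearly all of it Kit (44.9 and 38.6), to 4.08 and 4.89 in MAR1HI and to 0.0446 and 0.449 in MAR1INT. The tryptase Tpsab1 and the receptor Mrgprb1 were listed at 0 in every library. Between MAR1INT and BaP, 5 of the 9 eosinophil markers fell and 2 rose, the receptors Ccr3 (5.61 and 5.30 TPM to 131 and 120) and Siglecf (21.9 and 20.9 to 79.5 and 109.8), which made up most of the eosinophil sum in MAR1INT. In the same comparison 7 neutrophil, 8 monocyte and macrophage, 4 dendritic cell, 2 T and NK cell, 1 mast cell and 1 erythroid marker fell and none of these lists had a rise. Of the basophil markers 5 rose and 4 fell, of the megakaryocyte and platelet markers 1 rose and 1 fell, and of the B and plasma cell markers 0 were called. Markers of T and NK cells summed to 33.5 to 384 TPM, lowest in MAR1INT, those of erythroid cells to 593 to 2775, of B and plasma cells to 14.3 to 40, and of megakaryocytes and platelets to 12.5 to 89.1, highest in MAR1INT. Nearly all of the T and NK sum was Nkg7 (371 and 380 TPM in BaP, 32.3 and 51.5 in MAR1INT), and Cd3g was listed at 0 in every library. Most of the megakaryocyte and platelet sum in MAR1INT was Itgb3 (66.4 and 83.9 TPM). In MAR1INT, Pf4 was listed at 0 in both libraries and Ppbp at 6.17 and 5.02 TPM. The part of these cell types in the differences below was not tested, and in such bulk libraries fewer cells of a type and less RNA per cell cannot be told apart.

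In MAR1HI, replicate 2 stood above replicate 1 for 37 of 40 members, as it did for 85.9% of all tested genes, whereas the duplicates of BaP (17 of 40) and MAR1INT (16 of 40) showed no such lean. On the log2 scale the SD between duplicates had a median of 0.188 for BaP, 0.311 for MAR1HI and 0.25 for MAR1INT over all tested genes. On the TPM scale the median tested gene itself differed by 0.24 (log2) between MAR1HI and BaP, by -0.36 between MAR1INT and MAR1HI and by -0.16 between MAR1INT and BaP. The medians of the 40 members were 0.34, -0.29 and 0.00.

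Lyst (gene 17101, mm10 chromosome 13, 13590409 to 13777440) encodes a large BEACH-domain protein that limits the size of lysosomes and secretory granules, and its loss causes the giant granules of the beige mouse. Its level was 91.0 and 109 TPM in the BaP pair, 259 and 328 in the MAR1HI pair and 657.5 and 618 in the MAR1INT pair. Neither pair of neighbouring groups overlapped. The log2 difference was 1.54 (SE 0.21, adjusted p = 0.00822) between MAR1HI and BaP and 1.12 (adjusted p = 0.00708) between MAR1INT and MAR1HI. Between MAR1INT and BaP it was 2.66 (adjusted p = 7.04e-05). Among the 40 members Lyst ranked the fifth and the second by TPM in the BaP libraries, and first or second in each of the others. Its annotated exons share no base with another gene, and its mean read depth per base ran from 271 to 1556.

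Sytl3 (gene 83672, chromosome 17, 6673610 to 6738044) encodes a synaptotagmin-like protein with C2 domains. It was listed at 41.2 and 50.7 TPM in the BaP pair, 236 and 293 in the MAR1HI pair and 612 and 638 in the MAR1INT pair. The groups followed this order without overlap, with log2 differences of 2.50 (SE 0.21, adjusted p = 0.000937), 1.25 (adjusted p = 0.00487) and, between MAR1INT and BaP, 3.74 (adjusted p = 1.71e-05). The absolute level of Sytl3 depends on which deposited column is read. Its FPKM was 5.80 to 6.06 times what its coverage implied at the lowest ratio of each library, where most members stood at 1. Read from coverage scaled to 1 total for all libraries, Sytl3 stood at 7.47 and 9.20 in the BaP pair, 43.0 and 52.7 in the MAR1HI pair and 109 and 112 in the MAR1INT pair, well under Lyst (701 and 660 in MAR1INT). The change between groups was similar on that scale (3.59 between MAR1INT and BaP, adjusted p = 0.000135), so the differences hold on both scales and the rank of Sytl3 against other genes does not.

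Sytl2 (gene 83671, chromosome 7, 90302355 to 90410719), another synaptotagmin-like family member that binds RAB27, stood at 8.30 and 5.04 TPM in BaP. It reached 34.4 and 36.3 TPM in MAR1HI and 76.7 and 83.8 in MAR1INT. The 3 groups were again fully separated, with log2 differences of 2.28 (SE 0.32, adjusted p = 0.00946), 1.16 (adjusted p = 0.0383) and 3.44 (adjusted p = 0.000149). Sytl2 rose from the rank of 37 among the 40 members in both BaP libraries to 10 and 8 in MAR1INT. Its rise over MAR1HI lost its call by scaled coverage (1.02, adjusted p = 0.0627). The call was also lost with pseudocount 0.1 (0.0527), with no filter (0.0892) and without a trend in the prior variance (0.0548).

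Together, Lyst, Sytl3 and Sytl2 held 9.46% and 11.7% of the summed TPM of all 40 members in the BaP pair, 25.6% and 25.4% in the MAR1HI pair and 42.9% and 46.7% in the MAR1INT pair. They are the members called higher at both steps in these same libraries, so their growing share is not a separate result. The sum over the other 37 members was 1344 and 1247 TPM in the BaP pair, 1543 and 1936 in the MAR1HI pair and 1790 and 1528 in the MAR1INT pair. Of 40 members, 7 (17.5%) were ordered from BaP through MAR1HI to MAR1INT without any overlap between libraries, against 7.82% of all tested genes. Besides Lyst, Sytl3 and Sytl2 these were Stxbp2, Stx4a, Vamp4 and Syt11. Syt11 passed the filter only through the MAR1INT libraries and MAR1HI replicate 2, where it was highest. Its place in this count thus rests on values near the floor of the filter. The shares above hold for the TPM scale only. In MAR1INT, Sytl3 entered them at 612 and 638 TPM, against 109 and 112 by scaled coverage.

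**Figure D2:**
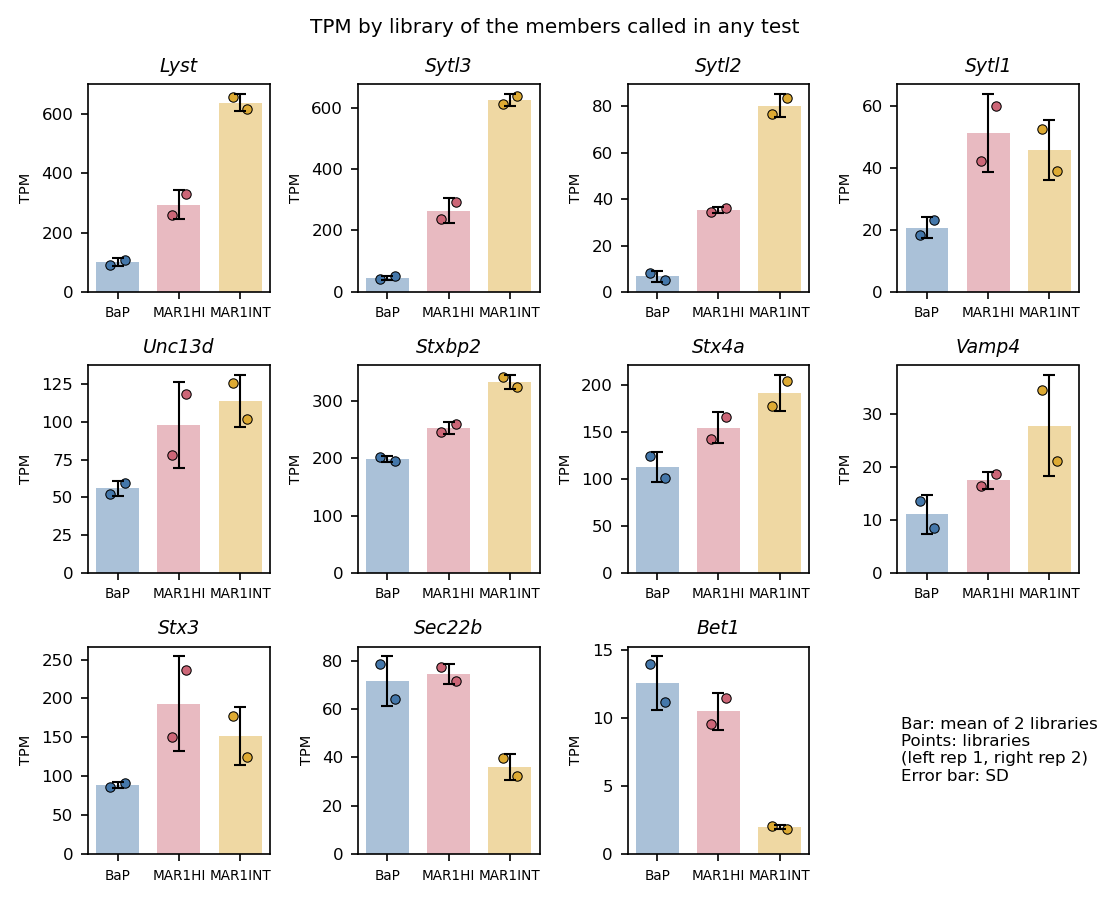
TPM of the 11 members called in any contrast or by the F test, with bars at the mean of 2 libraries, points for the libraries and error bars for the SD, each panel on its own axis from 0. Lyst, Sytl3 and Sytl2 climb at each step, while Sec22b and Bet1 are similar in BaP and MAR1HI and low in MAR1INT (Bet1 at 2.08 and 1.87 TPM).

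The first comparison set MAR1HI against BaP, that is, high MAR1 binding without CD34 against the CD34-positive precursor. Lyst, Sytl3 and Sytl2 rose, so that 3 of 40 members (7.5%) were called by limma, where 2.49% of all tested genes were called and 1.83% were called higher. No member was called lower, where 0.662% of tested genes were. At an unadjusted p under 0.05, 7 members were higher and 0 lower, and 17.5% of tested genes passed in either direction. Of 40 members, 23 lay wholly above BaP (38.2% of all tested genes did) and 2 wholly below (15.3% did). The members nearest to a call were Sytl1 (adjusted p = 0.0770) and Stx3 (adjusted p = 0.0828). All 3 calls were lost without MAR1HI replicate 1 (adjusted p = 0.0677 to 0.0909) or replicate 2 (0.130 to 0.228), settings in which 3 genes of the whole table were called, and with no filter on low values (0.0659 to 0.0820). Lyst and Sytl2 were also lost without BaP replicate 1 (0.107 and 0.0578) or BaP replicate 2 (0.0537 and 0.0974), and Lyst without a trend in the prior variance (0.0715). With only these 2 groups in the fit, or without either MAR1INT library, 6 members rose, Stx3, Stxbp3 and Sytl1 being added.

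The second comparison set MAR1INT against MAR1HI, which share the CD34-negative, CD200R3-positive gate. Lyst, Sytl3 and Sytl2 rose, and Sec22b and Bet1 fell. Thus 5 of 40 members (12.5%) were called, against 16.8% of tested genes, with 3 higher (background 2.29%) and 2 lower (background 14.5%). Without overlap, 10 members lay above MAR1HI (12.7% of tested genes) and 15 below (42.2%). The split between rises and falls moved with the scaling: 3 rose and 4 fell with FPKM, 5 rose and 0 fell when quantile-normalized, and 5 rose and 1 fell under median-of-ratios scaling. Of all tested genes, 260 were called higher and 1640 lower, against 379 and 1852, 786 and 948, and 806 and 1225 under the same 3 scalings. Without MAR1HI replicate 1 all 5 calls were lost (adjusted p = 0.0518 for Sytl3, 0.0596 for Lyst, 0.130 for Sytl2, 0.0958 for Sec22b and 0.0652 for Bet1). Without MAR1HI replicate 2 only Sytl3 was called (Lyst 0.0507, Sytl2 0.153, Sec22b 0.102, Bet1 0.0975). Sytl2 and Sec22b were the least stable: both also lost their calls without BaP replicate 1 (0.0609 and 0.0622), without BaP replicate 2 (0.0569 and 0.0607) and without MAR1INT replicate 2 (0.0621 and 0.0876).

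The third comparison set MAR1INT against BaP. Here 10 of 40 members (25%) were called, against 31.5% of tested genes. Among them 8 rose (20% of members, 11.1% of genes) and 2 fell (5% of members, 20.4% of genes). Without overlap, 17 members lay above BaP (29.7% of tested genes) and 12 below (39.1%). Lyst, Sytl3 and Sytl2 kept their calls under every alternative tried, each with adjusted p no higher than 0.00787. The 5 further rises were smaller and each was lost on leaving out at least 1 library, as given with each gene below. In the F test over the 3 groups 9 members (22.5%) passed, where 26.6% of tested genes did.

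**Figure D3:**
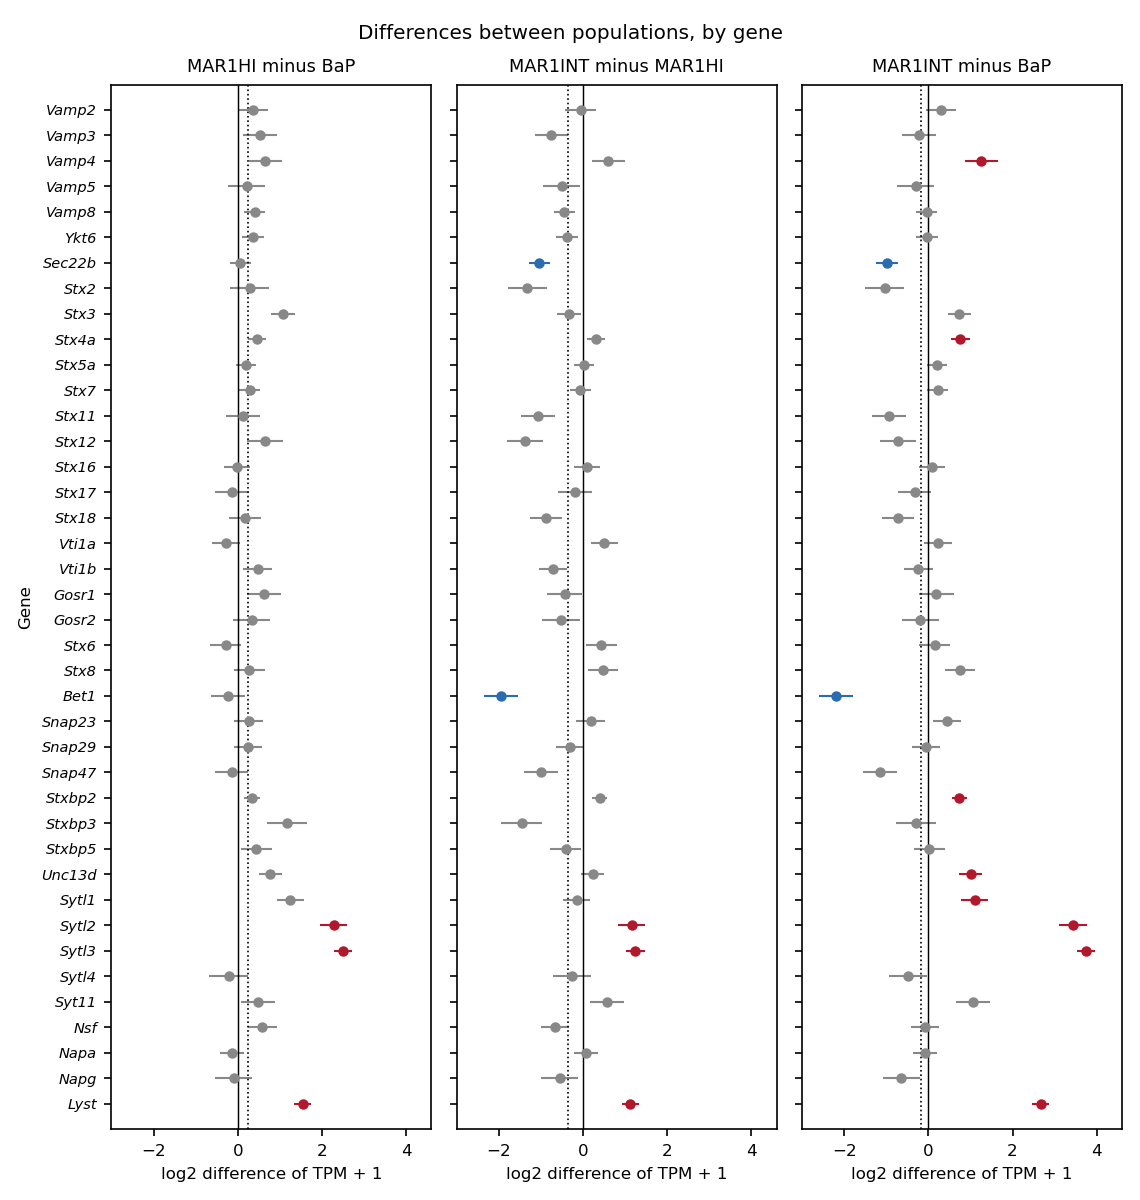
Log2 differences of TPM + 1 with SE for each member in the 3 comparisons, red for called rises, blue for called falls and grey for members not called, with a dotted line at the median of all tested genes. The 3 red points of the first panel (Sytl2, Sytl3 and Lyst) recur in the others, and Bet1 is the farthest point to the left in the 2 panels with MAR1INT.

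Among the granule priming and docking genes, Unc13d (gene 70450, chromosome 11, 116062096 to 116077961) encodes MUNC13-4, which primes secretory granules in cytotoxic and mast cells. Its level was 52.2 and 59.6 TPM in the BaP pair, 77.8 and 118 in the MAR1HI pair and 126 and 102 in the MAR1INT pair. MAR1HI and MAR1INT overlapped and both lay above BaP. It rose between BaP and MAR1INT by 1.01 (SE 0.27, adjusted p = 0.0204), while MAR1HI differed from BaP by 0.77 without a call (adjusted p = 0.184). The call was lost without BaP replicate 1 (0.144), BaP replicate 2 (0.0838) or MAR1INT replicate 1 (0.0686), with no filter (0.0663) and without a trend (0.0581).

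Sytl1, another synaptotagmin-like gene, stood at 18.3 and 23.1 TPM in the BaP pair, 42.2 and 60.0 in the MAR1HI pair and 52.6 and 38.9 in the MAR1INT pair. It was higher in MAR1INT than in BaP by 1.10 (SE 0.31, adjusted p = 0.0257), and its difference between MAR1HI and MAR1INT was not called (-0.15, adjusted p = 0.791). Its call was lost without BaP replicate 1 (0.187), BaP replicate 2 (0.0882) or MAR1INT replicate 1 (0.0925) and with no filter (0.0665). Sytl4, which encodes granuphilin, reached at most 1.24 TPM in any library. Syt11, an atypical synaptotagmin, stood at 0.634 and 0.302 TPM in the BaP pair, 0.904 and 1.19 in the MAR1HI pair and 2.63 and 1.54 in the MAR1INT pair, and was not called (1.06 between MAR1INT and BaP, adjusted p = 0.0760). That difference passed the threshold under quantile normalization (0.00615), median-of-ratios scaling (0.0425) and without a trend (0.0463). Syt11 in MAR1INT over MAR1HI also passed under quantile normalization (1.45, adjusted p = 0.0269). It reached the filter only in MAR1INT and in MAR1HI replicate 2, so these differences rest on values near its floor.

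The share of Sytl3 in its family was higher in MAR1INT than in BaP by TPM and by coverage, at different levels. Of the summed TPM of Sytl1 to Sytl4, Sytl3 held 60.1% and 63.3% in the BaP pair, 75.4% and 75.1% in the MAR1HI pair and 82.6% and 83.8% in the MAR1INT pair. Of the 6 priming and tethering genes, Sytl3 held 33.9% and 36.2% of TPM in BaP against 70.4% and 73.8% in MAR1INT. By scaled coverage the same shares were 8.24% and 8.98% against 29.5% and 34.0%. On that scale Unc13d was the largest of the 6 in BaP (60.9% and 61.4%), and in MAR1INT it stood near Sytl3 (36.4% and 32.8%).

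Of the syntaxin-binding genes, Stxbp2 (gene 20911, chromosome 8, 3631160 to 3643644) encodes MUNC18-2, the partner of syntaxins 3 and 11 in granule release. Its level was 203 and 195 TPM in the BaP pair, 246 and 260 in the MAR1HI pair and 341 and 324 in the MAR1INT pair, the highest of the 40 members in BaP. The groups were separated at each step, and the rise between BaP and MAR1INT was called (0.74, SE 0.19, adjusted p = 0.0157). No step alone was called (0.35, adjusted p = 0.378, and 0.39, adjusted p = 0.190). The second step passed the threshold under median-of-ratios scaling (0.68, adjusted p = 0.0440). The call was lost without BaP replicate 1 (0.0832), BaP replicate 2 (0.0982), MAR1INT replicate 1 (0.0948) or MAR1INT replicate 2 (0.0590), and without a trend (0.0832). Stxbp2 made up 75.7% to 91.9% of the TPM of its class in each library. Stxbp3, a widely expressed MUNC18 protein, ranged from 5.08 to 31.6 TPM with its highest value in MAR1HI replicate 2. Stxbp5, which encodes the SNARE inhibitor tomosyn, ranged from 23.3 to 51.8 TPM, and neither was called. Stxbp3 lay lower in MAR1INT than in MAR1HI without overlap (-1.46, adjusted p = 0.0689). That difference passed the threshold with a filter at a mean TPM of 5 (0.0478) and with FPKM (0.0430).

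Stx4a and Stx3, both encoding plasma membrane Qa-SNAREs, had the highest TPM of the class. Stx4a stood at 125 and 102 TPM in the BaP pair, 143 and 166 in the MAR1HI pair and 178 and 205 in the MAR1INT pair. Its product is the plasma membrane syntaxin most often tied to mast cell degranulation, and it rose between BaP and MAR1INT (0.76, SE 0.22, adjusted p = 0.0274). This call was lost without BaP replicate 1 (0.0759), BaP replicate 2 (0.189) or MAR1INT replicate 2 (0.141), with FPKM (0.0601), with no filter (0.0535) and without a trend (0.0934). Stx3, the other major granule syntaxin, stood at 86.2 and 91.8 TPM in the BaP pair, 150.1 and 236 in the MAR1HI pair and 178 and 125 in the MAR1INT pair. Both CD34-negative groups lay above BaP and overlapped each other, and Stx3 passed the F test (adjusted p = 0.0411) but no single comparison (1.07, adjusted p = 0.0828, and 0.74, adjusted p = 0.0709, over BaP). The FPKM of Stx3 was 3.29 to 3.30 times what its coverage implied, so by scaled coverage it lay lower, at 27.7 to 76.2, below Stx5a and Stx7 in every library. Over BaP, Stx3 in MAR1INT passed the threshold under median-of-ratios scaling (0.0223) and without MAR1INT replicate 2 (0.0196).

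Stx11, the syntaxin whose loss impairs killing by lymphocytes, was at the edge of detection here: 1.02 and 1.89 TPM in the BaP pair, 1.33 and 2.02 in the MAR1HI pair and 0.315 and 0.201 in the MAR1INT pair. Its MAR1INT libraries lay below all others without a call (-1.08 against MAR1HI, adjusted p = 0.104). Apart from Stx2, a plasma membrane syntaxin, the remaining genes of this class serve the endoplasmic reticulum, the Golgi apparatus, endosomes and autophagosomes. Stx5a (68.1 to 90.7 TPM), Stx7 (52.6 to 73.5), Stx16 (20.1 to 25.6) and Stx17 (5.74 to 8.45) varied by less than 1.5-fold across the 6 libraries. Stx2 (4.53 to 24.0 TPM), Stx12 (5.50 to 26.9) and Stx18 (10.4 to 29.3) were lowest in MAR1INT, with differences from MAR1HI of -1.33, -1.38 and -0.89 that were not called (adjusted p = 0.0808, 0.0558 and 0.147). Stx12 passed the threshold in 4 alternatives, among them without MAR1INT replicate 1 (0.00148), where Stx18 passed too (0.0182), and Stx2 passed without MAR1INT replicate 2 (0.00421). The fits without a MAR1INT library had infinite prior degrees of freedom, so their calls are liberal. Of the annotated exon sequence of Stx18, 32.3% is shared with genes on the opposite strand, and strand use in counting was not stated, so its level is uncertain.

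The R-SNAREs best known from secretory vesicles were not called. Vamp8 (gene 22320, chromosome 6, 72385221 to 72390667), encoding the granule R-SNARE of mast cell degranulation, stood at 112 and 82.2 TPM in the BaP pair, 128 and 127 in the MAR1HI pair and 106 and 82.4 in the MAR1INT pair. BaP and MAR1INT overlapped, and no comparison was called (0.40 in MAR1HI over BaP, adjusted p = 0.439; -0.45 in MAR1INT over MAR1HI, adjusted p = 0.260). It had the highest TPM of the R-SNAREs in every library, with 35.3% to 42.6% of the class, and 35.4% to 45.2% by scaled coverage. Vamp2 stood at 12.2 and 9.93 TPM in the BaP pair, 13.1 and 15.9 in the MAR1HI pair and 14.0 and 13.7 in the MAR1INT pair. Vamp3 stood at 10.4 and 9.08, 11.3 and 18.4, and 7.72 and 8.69 TPM in the same order. Both encode vesicle SNAREs of regulated and recycling traffic, and neither was called in any comparison (adjusted p from 0.243 to 0.939).

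Vamp4, an R-SNARE of the trans-Golgi network and endosomes, stood at 13.6 and 8.44 TPM in the BaP pair, 16.4 and 18.6 in the MAR1HI pair and 34.5 and 21.1 in the MAR1INT pair. It was the only R-SNARE called upward (1.25 between MAR1INT and BaP, SE 0.39, adjusted p = 0.0371), and its duplicates in MAR1INT differed by TPM. By scaled coverage they stood at 22.2 and 22.1, against 11.9 and 8.91 in BaP. The call was lost without MAR1INT replicate 1 (0.908, adjusted p = 0.130), BaP replicate 1 (0.0949), BaP replicate 2 (0.268), MAR1HI replicate 1 (0.0724) or MAR1HI replicate 2 (0.0718), with only these 2 groups fitted (0.0703) and with no filter (0.0932). Vamp5 (6.23 to 14.4 TPM) and Ykt6 (39.9 to 62.7 TPM), a membrane-anchored R-SNARE of several transport steps, were not called.

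**Figure D4:**
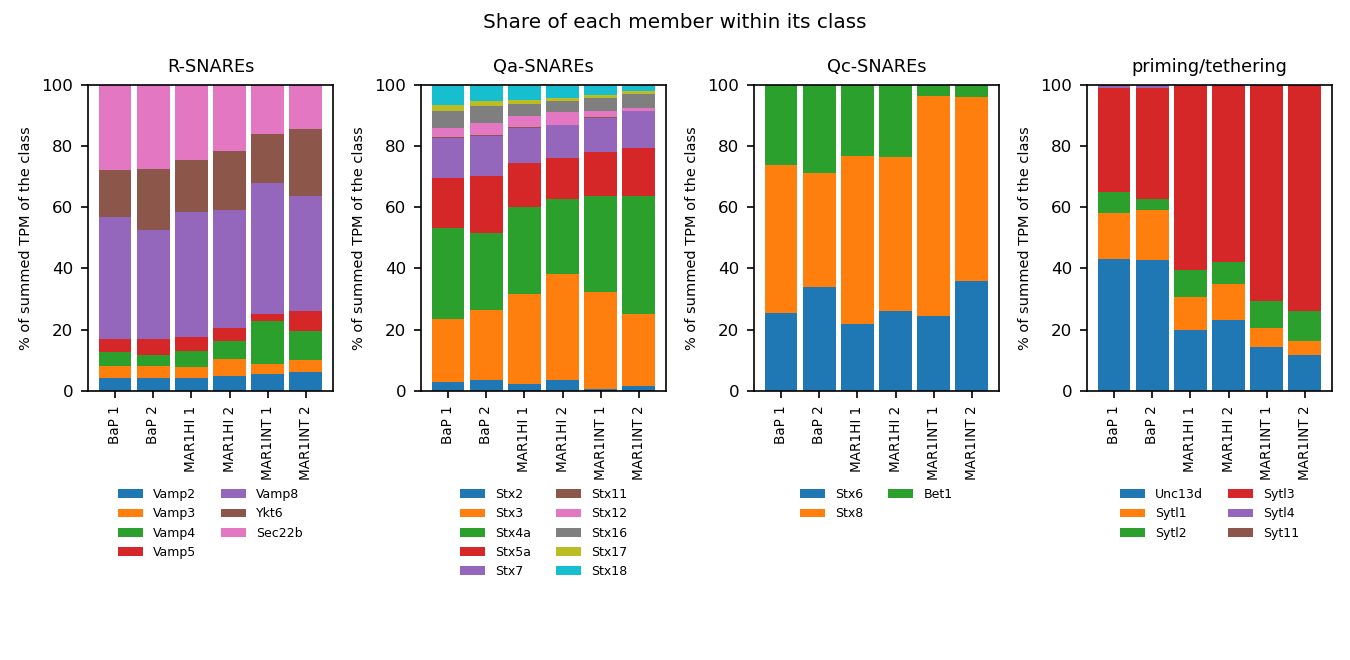
Share of each member in the summed TPM of its class, in percent, for 4 classes and the 6 libraries. Vamp8 holds 35.3% to 42.6% of the R-SNARE class throughout, Bet1 shrinks to 3.89% and 3.97% of the Qc class in MAR1INT, and Sytl3 grows to 70.4% and 73.8% of the priming and tethering class.

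The members that fell act early in the secretory pathway. Bet1 (gene 12068, chromosome 6, 4076904 to 4086927), a Qc-SNARE of vesicles moving between the endoplasmic reticulum and the Golgi apparatus, stood at 14.0 and 11.2 TPM in the BaP pair, 9.54 and 11.5 in the MAR1HI pair and 2.08 and 1.87 in the MAR1INT pair. BaP and MAR1HI overlapped, and both MAR1INT libraries lay far below. The log2 difference was -2.19 (SE 0.40, adjusted p = 0.00359) against BaP and -1.95 (adjusted p = 0.0115) against MAR1HI. The fall against BaP lost its call in 1 of the alternatives, without BaP replicate 1 (0.0605). The fall against MAR1HI kept its call there. It lost it with no filter (0.0596), after quantile normalization (-1.09, 0.0513) and without MAR1HI replicate 1 (-2.07) or replicate 2 (-1.83). The read depth of Bet1 was 4.69 to 41.6 per base, lowest in MAR1INT.

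Sec22b (gene 20333, chromosome 3, 97901227 to 97922318), the R-SNARE that pairs with syntaxin 5 and BET1 on the same route, stood at 78.9 and 64.4 TPM in the BaP pair, 77.5 and 71.6 in the MAR1HI pair and 39.8 and 32.2 in the MAR1INT pair. It fell by 0.98 on the log2 scale against BaP (SE 0.26, adjusted p = 0.0186) and by 1.04 against MAR1HI (adjusted p = 0.0246). Its call against BaP was lost without BaP replicate 1 (0.170), BaP replicate 2 (0.0714) or MAR1INT replicate 2 (0.0854), and that against MAR1HI also with no filter (0.0619), after quantile normalization (0.0630), with median-of-ratios scaling (0.0788), with only these 2 groups fitted (0.0618) and without a trend (0.0595). Sec22b went from 28% and 27.7% of R-SNARE TPM in BaP to 16.1% and 14.6% in MAR1INT. Other listed SNAREs of this route, Stx5a, Gosr1 (7.55 to 17.2 TPM), Gosr2 (7.64 to 19.4) and Stx18, were not called in any comparison.

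In the Qb, Qc and Qbc classes, which complete the bundle, the most abundant members were not called. Vti1b, an endosomal Qb-SNARE, stood at 25.5 and 26.3 TPM in the BaP pair, 27.3 and 48.3 in the MAR1HI pair and 21.1 and 22.6 in the MAR1INT pair, with 17.7% of its annotated exon sequence shared with Arg2 on the opposite strand. Stx8, a Qc-SNARE of late endosomes, stood at 25.6 and 14.3, 22.3 and 24.5, and 38.2 and 28.2 TPM (0.75 between MAR1INT and BaP, adjusted p = 0.146). Snap23, which supplies both the Qb and the Qc helix to granule fusion at the plasma membrane, stood at 106 and 80.8 TPM in the BaP pair, 107 and 116 in the MAR1HI pair and 185 and 85.9 in the MAR1INT pair. The MAR1INT duplicates of Snap23 lay on either side of both MAR1HI libraries, and the difference of 0.44 from BaP was not called (adjusted p = 0.353). Without MAR1INT replicate 2 it was 0.99 and called (adjusted p = 0.0226), in a fit with infinite prior degrees of freedom, which makes calls liberal. Snap23 held 75.5% to 89.0% of the TPM of its class. Snap47 stood lower in MAR1INT (3.62 and 3.56 TPM) than in any other library (7.88 to 10.3), a difference of -1.15 from BaP that missed the threshold (adjusted p = 0.0548) and passed it in 4 alternatives (0.0130 to 0.0495). Of its annotated exon sequence, 11.6% is shared with Jmjd4 on the opposite strand. Snap29 (16.4 to 26.0 TPM), Vti1a (14.7 to 27.4) and Stx6 (8.98 to 16.9) were not called. Vti1a in MAR1INT over MAR1HI passed the threshold under quantile normalization (0.89, adjusted p = 0.0319) and median-of-ratios scaling (0.79, adjusted p = 0.0386).

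None of the disassembly genes was called. Napa, encoding alpha-SNAP, stood at 44.8 and 43.4 TPM in the BaP pair, 33.5 and 47.8 in the MAR1HI pair and 40.7 and 43.1 in the MAR1INT pair, and its difference between MAR1INT and BaP was -0.07 (SE 0.28, adjusted p = 0.868). Nsf, the ATPase that unwinds spent complexes, ranged from 16.9 to 33.9 TPM with both MAR1HI libraries highest, and Napg from 6.10 to 16.4 TPM.

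Of 81 further genes in 4 lists (other SNAREs and their regulators, the exocyst, the HOPS and CORVET tethers, and the BLOC, AP-3 and Hermansky-Pudlak genes of granule formation), 50 passed the filter. In MAR1HI against BaP limma called 0 of 50, where 2.49% of all tested genes were called. At an unadjusted p under 0.05, 3 were higher and 0 lower, and 17.5% of all tested genes passed. MAR1INT had 1 gene higher and 1 lower than MAR1HI, and 3 higher and 3 lower than BaP (16.8% and 31.5% of tested genes were called). Use1, a SNARE of transport back to the endoplasmic reticulum, rose from 109 ± 17.7 TPM in BaP (SD, n = 2) to 241 ± 43.2 in MAR1INT (1.13, adjusted p = 0.00569). Vps45, a Munc18-type protein of endosomes, stood at 11.7 and 10.2 TPM in the BaP pair, 15.8 and 28.1 in the MAR1HI pair and 3.53 and 1.25 in the MAR1INT pair, and fell against both (-1.91, adjusted p = 0.0161, and -2.79, adjusted p = 0.00502).

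Other calls in these lists included Exoc6b (1.42) and Bloc1s2 (0.71), which rose in MAR1INT over BaP, and Sec22a (-1.52), which fell and stood at 2.07 TPM or less in every library. Sec22a was listed at 0 in both MAR1INT libraries and passed the filter only through BaP and MAR1HI (1.07 to 2.07 TPM). Its call thus rests on values near the floor of the filter. All 9 exocyst genes were tested, with 1 called between MAR1INT and BaP and a median of 0.46, and all 10 HOPS and CORVET genes, with 0 called (median 0.17). Of 25 genes in these lists (other synaptotagmins, Sytl5, complexins, the remaining Unc13 genes and Doc2 genes), 0 passed the filter, the highest single value being 1.25 TPM for Unc13b in BaP replicate 1.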

How the data were processed

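Per the labels, TRIZol LS was used for extraction and the SureSelectXT RNA direct kit, which captures sequences with probes, for the libraries. The submitters' processing notes name Trimmomatic (a read trimmer), HISAT2 (an aligner), StringTie (a quantifier) and the build mm10; versions, options and annotation were not given in the sources used here. Per the file headers, the authors deposited coverage (a signal, mean read depth per base), FPKM and TPM for each gene, and no counts were used, so counting intervals cannot be given. Entrez IDs were matched to symbols with RefSeq of GRCm38.p6 (24462 of 24532 matched), and rows of 1 ID were summed. The filter kept genes reaching TPM 1 in 2 or more libraries, which were tested on log2(TPM + 1), which understates changes of low genes, with limma 3.58.1 in R 4.3.3 (1 term per group over 6 libraries, eBayes with a trend, residual degrees of freedom 3, prior degrees of freedom 6.39 at the median, two-sided, Benjamini-Hochberg over 11337 genes). The script was tested on simulated data. Exon overlaps came from GENCODE M21. Tables and plots were made in Python 3.11.15 with numpy 2.4.6, pandas 2.3.3 and, for plots, matplotlib 3.10.9.

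Members and lists were chosen with earlier results of these data known. Members called in any test, 11 tied to granule release, and the most abundant of each class are given for every library. Alternatives covered pseudocounts, filters, FPKM, quantile and median-of-ratios scaling, 2-group fits, no trend, a replicate block and leaving out each library. Coverage scaled to 1 total for all libraries was added after seeing the data. The values of 1 gene of the further lists are not reported here.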

Additional observations from a re-analysis of the deposited data

How the results depend on the processing

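Across 17 alternatives none of the 18 called differences of members changed sign. In part of the alternatives no change was possible, as the difference itself stays the same. These were other filters, 2-group fits, no trend, the replicate block and leaving out a library of the group not compared. MAR1HI and BaP parted 3 members as reported, 0 with no filter on low values, and 6 with only the 2 groups fitted. Leaving out 1 library gave 0 to 6. MAR1INT and MAR1HI parted 5 members, against 2 with no filter and 3 without a trend in the prior variance, and 0 to 8 on leaving out 1 library. MAR1INT and BaP parted 10, against 6 with no filter, and 3 to 10 on leaving out 1 library. Over all genes, MAR1HI and BaP gave 282 calls, against 89 with pseudocount 0.1, 4 with no filter, 104 without a trend, 1062 with only the 2 groups fitted, and 3 to 1092 on leaving out 1 library. MAR1INT and MAR1HI gave 1900, against 562 with no filter and 239 to 2611 on leaving out 1 library. MAR1INT and BaP gave 3574, against 2358 with no filter and 1581 to 4024. The prior degrees of freedom became infinite for MAR1HI against BaP with 2 groups fitted, and for all 3 comparisons without either MAR1INT library, so those calls are liberal. A group left with 1 library was assumed to vary like the others. The share of called genes that rose in the 3 comparisons was 73.4%, 13.7% and 35.3%, with FPKM 59.0%, 17.0% and 28.7%, when quantile-normalized 56.9%, 45.3% and 55.1%, and under median-of-ratios scaling 60.3%, 39.7% and 41.4%. The members' median between MAR1INT and MAR1HI turned from -0.29 to 0.13 after quantile normalization, and that of all tested genes from -0.36 to 0.11. With the replicate block, 3, 4 and 10 members were called, and the rise of Sytl2 in MAR1INT over MAR1HI lost its call (adjusted p = 0.0538). The replicate numbers do not pair the samples in the labels, and same-numbered deviations correlated at 0.154, -0.0922 and -0.0593 across genes. The cause of these shifts was not tested. Depth limits Stx11, Sytl4 and Syt11, whose mean read depth stayed at or under 6.23 per base.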
